A study of Homo sapiens with 8 samples.

Results

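The genes described here are the human ZNF genes that lie outside chromosome 19. They were taken from GENCODE release 44 on hg38 as every protein-coding gene on an autosome other than chromosome 19 whose symbol begins with ZNF and a digit, which gave 254 of 19111 autosomal protein-coding genes. The choice used no measured value. For comparison, chromosome 19 alone held 249 genes of the same name form. The members were examined in ChIP-Seq of PHF20 and its paralog PHF20L1 in U2OS, a human osteosarcoma cell line. Each protein was overexpressed with 3 copies of the HA peptide tag and isolated with an antibody to HA. The 2 tagged proteins were expressed in separate cells, so a gene with peaks of both is not shown to carry both at once. PHF20 was tagged at the N terminus in 2 ChIP libraries and had 1 input library, and PHF20L1 was tagged at the N terminus in 1 ChIP library and at the C terminus in 2, with 2 input libraries. The lists therefore describe the tagged and overexpressed proteins, and endogenous PHF20 or PHF20L1 was not analysed here.

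A ZNF gene encodes, in most cases, a protein with an array of C2H2 zinc fingers, each a short fold held by a zinc ion that contacts a few bases of DNA. Many of these genes arose by tandem duplication and stand in clusters, and a large group of them carries a KRAB domain that recruits the corepressor TRIM28 to silence transposable elements. Others act as promoter factors, as parts of chromatin complexes or in RNA processing. PHF20 and PHF20L1 are readers of methylated lysines that belong to the NSL complex, a histone acetyltransferase complex found at promoters of broadly expressed genes.

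A gene was called bound when a peak of the final list of a protein overlapped its promoter window, which runs for each transcript from 1000 bp before the transcription start site (TSS) to 500 bp after it. The PHF20 list held 4147 peaks and the PHF20L1 list 723. The lists give positions only, so a peak has a place and a width but no height, read depth or value for each replicate. The intervals given are Wilson 95% intervals over genes and cover counting error only, and neighbouring duplicated genes are not independent of each other. For a count of 0 the limit given is instead the share that a count of 3 would make.

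PHF20 peaks lay in the promoters of 107 of the 254 ZNF genes (42.1%, interval 36.2% to 48.3%). Over all autosomal protein-coding genes the share was 21.5%, so that the share among these ZNF genes was 1.96 times that of all genes. On chromosome 19, 60 of 249 ZNF genes were bound (24.1%, interval 19.2% to 29.8%), an interval that holds the share of all genes. Only uniquely mapped reads had been kept, and promoters of chromosome 19 were not searched for close copies. The part of such copies in this share was not tested. PHF20L1 peaks lay in 13 of the 254 promoters (5.12%, interval 3.02% to 8.56%), where all genes gave 3.98% and the chromosome 19 ZNF genes 3.61%. The share of all genes lay within the interval of the ZNF genes. Every one of the 13 PHF20L1-bound ZNF genes also had a PHF20 peak, and 94 had a PHF20 peak only. Genes with both proteins made up 12.1% of the PHF20-bound ZNF genes (interval 7.24% to 19.7%) and 18.1% of all PHF20-bound genes, and they made up 100% of the PHF20L1-bound ZNF genes against 97.5% of all PHF20L1-bound genes. Neither protein was called at 147 of the ZNF genes.

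The sequences shown first are those of a duplicated group on chromosome 7, because closely related copies of 1 stretch of DNA lay in promoters with and without a PHF20 peak. The 13 ZNF genes of this group lie near the centromere, from ZNF479 on the short arm to ZNF92 on the long arm. An 80-base stretch in the PHF20 peak of ZNF107 holds ATGGCGGC, the core of the motif of the factor YY1, and lies in an intron 222 bp downstream of the nearest TSS. The best match to it was looked up at all 254 genes, on the strand of the gene. The search ran from 500 bp before each TSS to 1000 bp after it, unlike the promoter window. The matches of 6 genes are given 5′ to 3′ along the gene, with the 8 bases that align to ATGGCGGC in capitals. The first 5 genes were bound by PHF20 and ZNF138 was not.
ZNF107, chr7:64666443-64666522, plus strand: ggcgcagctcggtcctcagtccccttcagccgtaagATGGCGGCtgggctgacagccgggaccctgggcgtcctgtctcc
ZNF680, chr7:64562722-64562800, minus strand: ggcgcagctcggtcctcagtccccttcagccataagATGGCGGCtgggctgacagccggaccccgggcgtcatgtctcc
ZNF92, chr7:65374127-65374206, plus strand: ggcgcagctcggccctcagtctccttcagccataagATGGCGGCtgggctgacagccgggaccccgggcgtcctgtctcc
ZNF273, chr7:64903547-64903626, plus strand: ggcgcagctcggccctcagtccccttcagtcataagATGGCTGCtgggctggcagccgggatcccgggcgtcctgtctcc
ZNF117, chr7:65006334-65006413, minus strand: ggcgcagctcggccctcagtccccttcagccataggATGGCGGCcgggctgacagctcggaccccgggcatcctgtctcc
ZNF138, chr7:64794697-64794774, plus strand: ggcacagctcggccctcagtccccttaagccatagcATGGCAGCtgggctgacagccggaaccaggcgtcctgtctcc

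Counted from 1 at the A of ATGGCGGC, ZNF273 differed from this word by G6T and ZNF138 by G6A. The intact word was therefore present in 4 of the 5 bound genes and absent from the fifth, ZNF273. The matches of the bound genes overlapped their PHF20 peaks, which were 342 bp wide at ZNF680, 448 bp at ZNF107, 487 bp at ZNF92, 558 bp at ZNF273 and 674 bp at ZNF117. The PHF20 peak of ZNF117 lies at a start site far upstream of its canonical one and is shared with ERV3-1, a gene of an endogenous retrovirus envelope. Identity to the ZNF107 stretch was 95% in ZNF680 and ZNF92, 91.2% in ZNF273 and 90.0% in ZNF117. It was 86.2% in the unbound ZNF138, and 65.0% to 75% in the other 7 unbound genes, which were ZNF479, ZNF735, ZNF716, ZNF722, ZNF679, ZNF727 and ZNF736. Among the 241 ZNF genes outside the group, the best match had a median identity of 60%. The highest, 81.2%, was in ZNF267 on chromosome 16, which holds ATGGCGGC in an exon and had no peak. The stretch was picked from a bound gene after motif matches had been seen, only this stretch was searched, and the genes share ancestry, so the order of identities is a description without a test. The reads had been kept only where they mapped uniquely, and the promoters of ZNF479 and ZNF679 have a close copy elsewhere in the genome, and the part of this in the unbound calls was not tested.

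**Figure D1:**
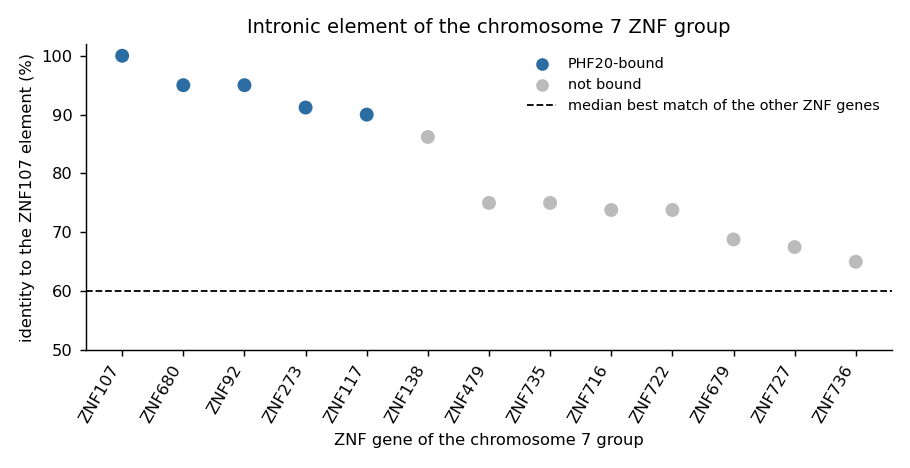
Identity (%) of the best match to the 80-base ZNF107 stretch in each of the 13 ZNF genes of the chromosome 7 group, each point 1 gene, in blue where the promoter had a PHF20 peak. Of the 5 bound genes, ZNF107 at 100% is matched to itself, and the others sit between 90.0% and 95%. The 8 unbound genes sit between 65.0% and 86.2%, and the median of the other 241 ZNF genes (60%) is a dashed line.

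The word ATGGCGGC was searched on both strands within 250 bp of the centres of all 111 promoter peaks of PHF20 at the ZNF genes. It was present in 14 (12.6%), of which 4 belong to the chromosome 7 group, against 11.5% of all 3527 PHF20 promoter peaks. In the 501 bp around the canonical TSS it was present in 13.1% of the bound ZNF genes, in 6.12% of the unbound ones and in 7.17% of all promoters.

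The ETS word ACTTCCGG is shown for genes with a peak of both proteins. At the ZNF genes outside chromosome 19 its share was higher in the PHF20L1 peaks than in the PHF20 peaks. It is the core bound by ETS factors such as GABPA, and it was present within 250 bp of the centre of 6 of the 13 PHF20L1 promoter peaks of the ZNF genes (46.2%) and of 23.4% of all 610 PHF20L1 promoter peaks. That window is wider than most PHF20L1 peaks. Within the peaks themselves the word was in 5 of the 13 (38.5%) and in 17.0% of all, where ZNF408 and ZNF696 no longer counted and ZNF518A did. With 13 peaks, 1 peak moves this share by 7.69 percentage points. Of the PHF20 peaks of the ZNF genes, 18 (16.2%) had it within 250 bp of the centre, against 16.8% of all PHF20 promoter peaks. At chromosome 19 ZNF genes the share was 24.1% of 58 PHF20 peaks. Only 1 of 10 PHF20L1 peaks had the word there, so the higher PHF20L1 share was not seen on chromosome 19. Within whole PHF20 peaks the word was in 20.7% at the ZNF genes outside chromosome 19. It was in 17.6% of all whole PHF20 promoter peaks, close to the 17.0% of all PHF20L1 promoter peaks. The matches below are given along the gene with the word, or its reverse complement, in capitals.
ZNF384, chr12:6689357-6689386, minus strand: gctgcagcaccACTTCCGGgtgagtgcaag
ZNF384, chr12:6689550-6689579, minus strand: tccagccactcCCGGAAGTgactcggcttc
ZNF384, chr12:6689571-6689600, minus strand: cgctagcggcgCCGGAAGTgttccagccac
ZNF408, chr11:46700643-46700722, plus strand: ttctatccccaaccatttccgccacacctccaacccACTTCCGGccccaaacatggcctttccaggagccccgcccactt
ZNF408, chr11:46701005-46701034, plus strand: agaggaagctcACTTCCGGcgtagggaggc
ZNF22, chr10:45000912-45000941, plus strand: gcgaggccctcACTTCCGGcggcgcgggag
ZNF276, chr16:89720976-89721005, plus strand: gacgcggccgcACTTCCGGcgacgggcccc
ZNF165, chr6:28080923-28080952, plus strand: cagtccttccaCCGGAAGTgtccgatcgga

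ZNF384 held 3 such words within 250 bp of the centre of its PHF20L1 peak and ZNF408 held 2. In ZNF384 they lay over an annotated TSS, at 4 bp and at -17 bp from the nearest TSS. The word of ZNF22 lay over an annotated TSS. The word lay 2 bp downstream of a TSS in ZNF276 and at -14 bp from the nearest TSS in ZNF408, where the other match was at -351 bp. In ZNF165 the word lay in an exon 366 bp downstream of the TSS. The sixth gene was ZNF696. In the 501 bp around the canonical TSS, ACTTCCGG was present in 19.6% of the PHF20-bound ZNF genes, in 11.6% of the unbound ones and in 6.74% of all promoters.

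The other words searched were compared in the same way. The E-box CACGTGAC, bound by USF and MYC family factors, was present within 250 bp of the centre of 4 of 111 PHF20 peaks of the ZNF genes (3.6%) and of 5.98% of all PHF20 promoter peaks. These 4 were the peaks of ZNF512, ZNF84, ZNF789 and ZNF292, a large zinc finger gene with 2 of these words a short way upstream of its TSS. The match of ZNF84 lies outside its narrow peak, and the peak of ZNF318 holds the word farther from its centre. The stretch of ZNF292 that carries both is shown with the first match in capitals, and the second follows near its end.
ZNF292, chr6:87155482-87155561, plus strand: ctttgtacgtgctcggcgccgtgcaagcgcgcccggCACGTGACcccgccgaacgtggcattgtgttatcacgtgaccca
Within the same distance of the centre, the word TCTCGCGA was in 0 of the 111 peaks and in 3.35% of all PHF20 promoter peaks. A count of 0 in 111 allows a share of up to 2.7%. The NRF1 word CGCATGCG was in 1.8% against 3.01%, the reverse CCAAT word GATTGG in 18.0% against 15.3%, and GGGCGG, the core of SP and KLF sites, in 74.8% against 77.8%. The word ACTACAAT, part of the site of ZNF143 and THAP11, was in 0 of the 111 peaks within that distance, in 8.62% of the 58 PHF20 peaks of chromosome 19 ZNF genes and in 0.482% of all PHF20 promoter peaks. Over whole peaks it was in 2 of the 111 (1.8%), those of ZNF165 and ZNF830, and in 0.709% of all. It was also within 250 bp of the centre of 1 of the 13 PHF20L1 peaks, that of ZNF165 (7.69%), against 0.492% of all PHF20L1 promoter peaks. In the promoters of the ZNF genes outside chromosome 19, ACTACAAT was present in 6 of 147 unbound genes (4.08%) and 1 of 107 bound genes (0.935%). The 6 include ZNF286A and its read-through ZNF286A-TBC1D26, whose canonical TSSs lie close together, so 1 promoter is counted for both. Such matches say only that the letters are in the window.

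The CpG content of the promoter, given as the observed over expected frequency of CpG in the same window around the canonical TSS, was higher in bound than in unbound ZNF genes, with medians of 0.745 and 0.691. Among the ZNF genes with a ratio of at least 0.6, called CpG-rich here, 91 of 196 were PHF20-bound (46.4%, interval 39.6% to 53.4%). The same class gave 30.5% over all genes and 31.1% for chromosome 19 ZNF genes. Among the ZNF genes below 0.6, 16 of 58 were bound (27.6%, interval 17.8% to 40.2%), against 6.99% over all genes and 9.76% on chromosome 19. In finer classes the ZNF genes outside chromosome 19 had the higher share from 0.4 to 0.6 (36.8% against 9.72%) and from 0.6 to 0.8 (45.4% against 28.6%), but not at 0.8 and above (48.5% against 50%) or below 0.4 (10% in either set). In this lowest class only ZNF117 and ZNF205 of 20 genes were bound, and the peak of ZNF117 lies at its distant start site.

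**Figure D2:**
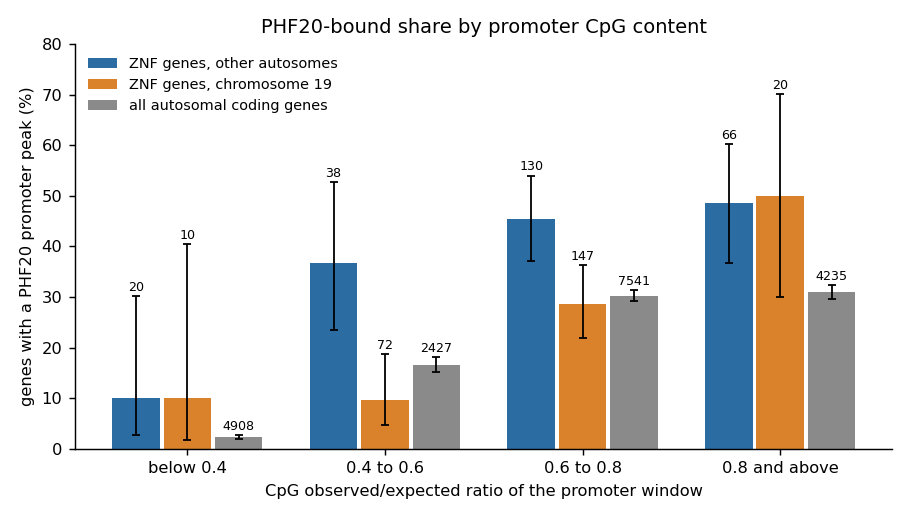
Genes with a PHF20 promoter peak (%, vertical axis from 0) in 4 classes of promoter CpG observed/expected ratio, for ZNF genes of the other autosomes (blue), ZNF genes of chromosome 19 (orange) and all autosomal protein-coding genes (grey). Error bars are Wilson 95% intervals and the number over each bar is the number of genes. The blue bars go from 10% below 0.4 to 48.5% at 0.8 and above, where the grey bars reach 31.0% and the orange bar, of 20 genes, 50%.

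Genes with more annotated TSSs have more windows in which a peak can fall, and the share of bound genes was higher where their number was higher. Of the ZNF genes with 1 to 2 TSSs 24.5% were bound, of those with 3 to 5 TSSs 40.2%, of those with 6 to 10 TSSs 50.8% and of those with 11 or more 54.5%. Over all genes the same classes gave 10.4%, 19.5%, 25.7% and 31.0%. The median number of TSSs was 5 for the ZNF genes and 5 for all genes, so that at the median the number of windows was alike.

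The coding sequences of the ZNF genes were searched for the C2H2 pattern of zinc fingers. Of the 30 ZNF genes with 15 or more matches, 21 were bound by PHF20 (70.0%, interval 52.1% to 83.3%), against 16 of 75 such genes on chromosome 19 (21.3%, interval 13.6% to 31.9%). The share was 35.5% for 10 to 14 matches, 45.2% for 5 to 9, 32.1% for 1 to 4 and 36.4% for 0. It did not climb steadily with the number of fingers. The bound genes of the top class included ZNF142 with 36 matches, ZNF236 and ZNF646 with 30 each, ZNF268 with 24, and ZNF407 and ZNF721 with 23 each. The peak of ZNF142 is shared with BCS1L, and ZNF646 shares its peak with ZNF668, also of that class. The unbound genes of that class included ZNF462 with 33 matches, and ZNF423 and ZNF521 with 27 each. A KRAB-like pattern was found in 71 of the 254 genes, of which 28 were bound (39.4%), against 79 of the 183 without it (43.2%). PHF20L1 peaks lay at 13 of the 183 and at 0 of the 71, a count that would still allow for 4.23%, above the 3.98% of all genes. On chromosome 19, 5 of 143 genes with the pattern had a PHF20L1 peak. The pattern is strict and misses part of the KRAB genes, among them ZNF680. The 0 of 71 therefore does not show that no KRAB gene had a PHF20L1 peak.

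The bound genes were spread over the genome unevenly. Chromosome 16 held 30 ZNF genes, of which 19 were PHF20-bound, and chromosome 7 held 35, of which 19 were bound. All 3 genes of chromosome 14, ZNF219, ZNF410 and ZNF839, were bound, and 6 of 9 on chromosome 2. The shares of all genes on these chromosomes were 24.8% and 27.4%. Chromosome 1 had 5 of 22, chromosome 5 had 2 of 12, chromosome 9 had 2 of 12 and chromosome 4 had 1 of 8. The shares of all genes on chromosomes 1, 5, 9 and 4 were 20.1%, 22.0%, 21.6% and 19.8%, near those of chromosome 16 (22.5%) and chromosome 7 (22.0%).

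**Figure D3:**
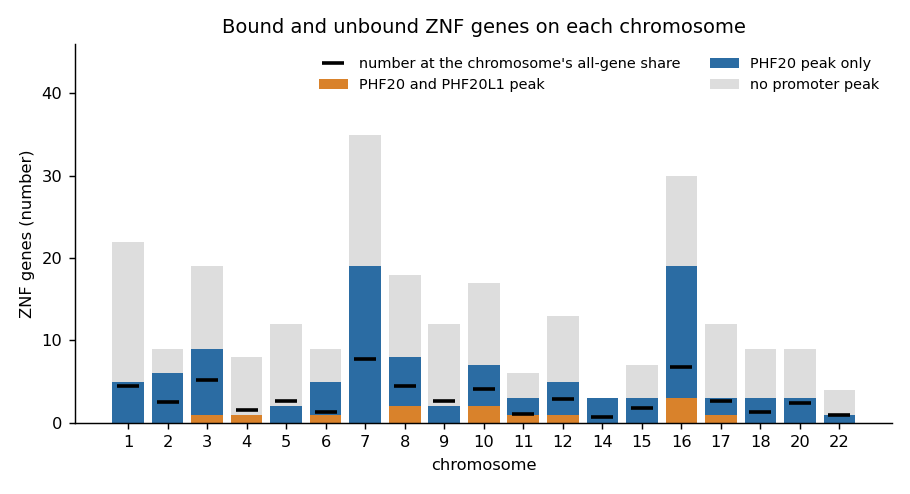
Number of ZNF genes on each autosome that has any, split into genes with a PHF20 and a PHF20L1 peak (orange), a PHF20 peak only (blue) and no promoter peak (grey). Black marks show the number that would be bound at the share of all genes of that chromosome. The bound genes of chromosomes 7 and 16 (19 each) stand above their marks, and those of chromosomes 4, 5 and 9 (1, 2 and 2) lie close below them.

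ZNF genes whose neighbouring canonical TSSs lie within 250 kb formed 18 clusters of at least 3 genes. Within clusters 51 of 96 genes were PHF20-bound (53.1%, interval 43.2% to 62.8%), and outside them 56 of 158 (35.4%, interval 28.4% to 43.2%). Among CpG-rich promoters the shares were 56.0% within clusters and 40.5% outside, with intervals of 44.7% to 66.7% and 32.2% to 49.4% that overlap. All genes were bound in 3 clusters, none in 2, and some in 13.

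The cluster with the most bound genes lies on chromosome 16 and spans 392 kb, with 7 of 9 genes bound. In order, its PHF20 peaks were 357 bp wide at ZNF48, 526 bp at ZNF768, 1025 bp at ZNF747, 390 bp at ZNF688, 525 bp and 282 bp at the 2 peaks of ZNF785, 656 bp at ZNF689 and 597 bp at ZNF629. The unbound pair was ZNF771 and ZNF764. Their promoters were as CpG-rich, with ratios of 0.707 and 0.724, as those of the bound neighbours ZNF785 (0.703) and ZNF688 (0.724). ZNF629 was bound with the lowest ratio of the cluster, 0.453. The peak of ZNF48 lies at an upstream start site shared with MYL11, a myosin light chain gene.

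The fully bound clusters were ZNF514, ZNF2 and ZNF892 on chromosome 2, and on chromosome 7 the cluster of ZNF853, ZNF316 and ZNF12 and that of ZNF789, ZNF394 and ZNF655. In the chromosome 8 cluster 5 of 6 genes were bound, with ZNF251 the exception, and in the chromosome 3 cluster around ZNF501 5 of 7 were bound. The cluster on chromosome 5 that holds ZNF354A, ZNF354B, ZNF454, ZNF879 and ZNF354C had no bound gene. Its promoters were nevertheless CpG-rich, with ratios from 0.728 in ZNF454 to 0.956 in ZNF879. In the cluster of 5 genes at the start of chromosome 4, ZNF721 alone was bound, by both proteins.

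**Figure D4:**
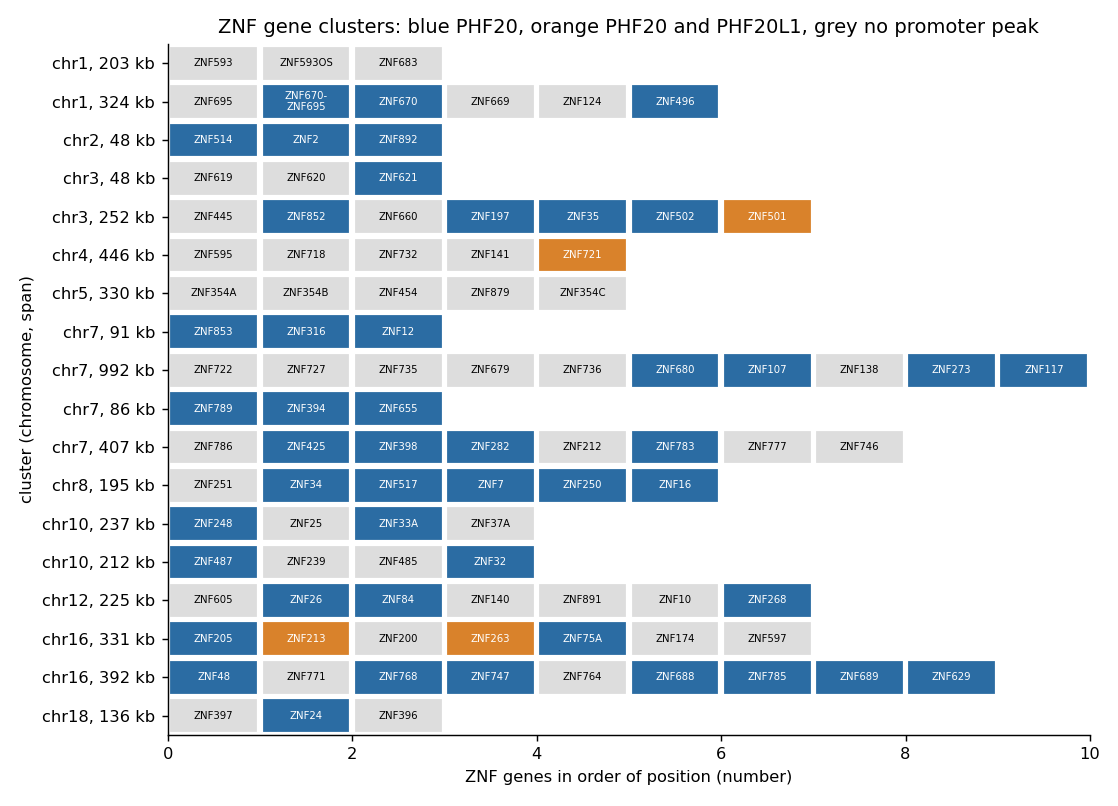
The 18 clusters of ZNF genes, 1 row each, labelled with chromosome and span (kb), with the genes in order of position along the horizontal axis. Blue marks genes with a PHF20 promoter peak, orange genes with a PHF20 and a PHF20L1 peak, and grey genes with neither. Bound and unbound genes occur together in 13 clusters, the row of chromosome 5 is all grey, and 3 rows are fully coloured.

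The 107 bound genes had 111 different PHF20 peaks in their promoters, and 8 genes had 2. The median width was 656 bp (range 200 to 1660 bp), against 637 bp for all PHF20 promoter peaks. The centre lay at a median of 19 bp downstream of the nearest TSS, and 79.3% of the peaks spanned the nearest TSS, against 79.1% of all promoter peaks. The median offset of all promoter peaks was 4 bp. Without regard to direction, the centres lay at a median of 138 bp from the nearest TSS at the ZNF genes and 100 bp over all peaks, so that width and the share spanning a TSS were close to those of all peaks and the distance was somewhat larger. Unbound genes mostly lay far from any peak. Of the 147 unbound genes only ZNF423 had a PHF20 peak within 2500 bp of a TSS. The median gap from an unbound gene to the nearest PHF20 peak was 121 kb. Widening the window to 2500 bp on either side moved the bound share from 42.1% to 42.5%. The share of all genes moved from 21.5% to 22.2%, so few added calls are not particular to the ZNF genes. The gap was not measured for all genes.

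**Figure D5:**
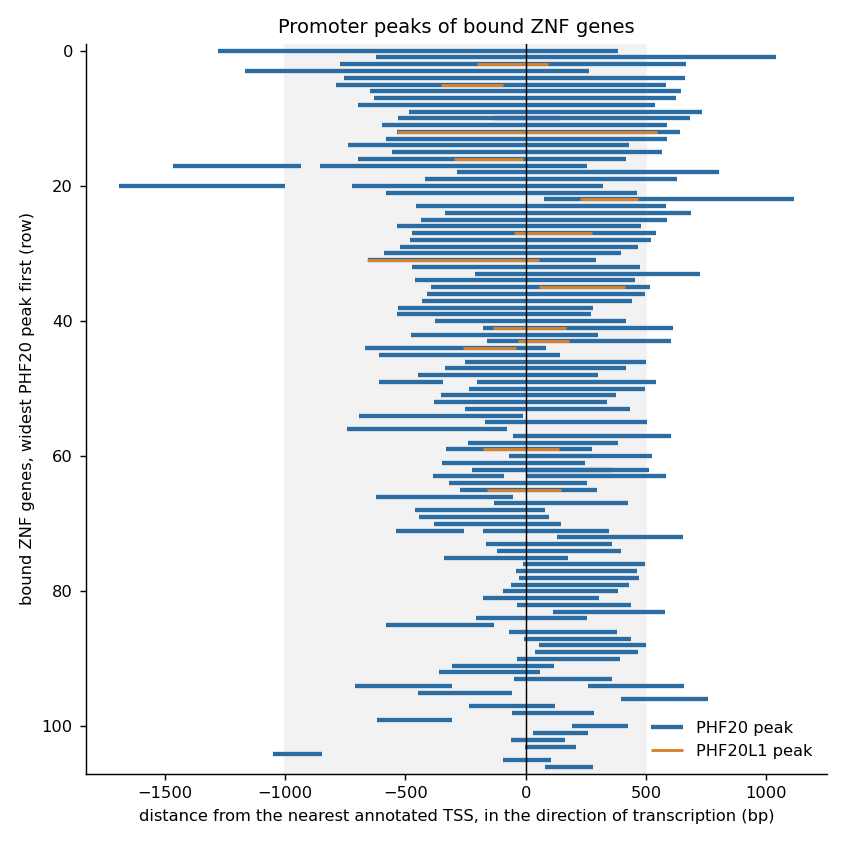
PHF20 peaks (blue) and PHF20L1 peaks (orange) of the 107 bound ZNF genes, 1 row per gene with the widest PHF20 peak at the top, drawn as distance from the nearest annotated TSS in bp along the direction of transcription. The grey band is the promoter window of 1000 bp before and 500 bp after the TSS. Most bars cross the TSS at 0, and each orange bar lies on a blue one. Each peak is drawn from its own nearest TSS, so the bars of a gene can be shifted against each other.

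The widest peak, 1660 bp (chr16:31073146-31074805), covers the start sites of both ZNF646 and ZNF668, a divergent pair, and reaches farther into ZNF668. Its width stands at percentile 99.61 of the list. It was followed by ZNF501 with 1440 bp, ZNF407 with 1428 bp, ZNF655 with 1415 bp, ZNF830 with 1373 bp and ZNF410 with 1292 bp. ZNF16 had a peak of 1256 bp, ZNF12 of 1237 bp, and ZNF2 shared 1 of 1214 bp with ZNF514. The narrowest were those of ZNF219 and ZNF672, both 200 bp, which is the extension size of the peak caller, and of ZNF217 with 206 bp. The peak of ZNF217 has its centre at -947 bp from its TSS, at the far end of the window.

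A peak can lie in the promoters of more than 1 gene. The peaks of 25 bound ZNF genes also overlapped the promoter window of another protein-coding gene, and those of the other 82 did not. Pairs of ZNF genes shared a peak in 4 cases, which were ZNF646 with ZNF668, ZNF2 with ZNF514, ZNF398 with ZNF425, and ZNF670 with its read-through ZNF670-ZNF695. Partners of other families included CCT6B, a chaperonin subunit, at ZNF830, and PIGG, an enzyme of GPI anchor synthesis, at ZNF721. Of the 111 peaks 19.8% were shared in this way, against 22.7% of all PHF20 promoter peaks and 34.5% of those of the chromosome 19 ZNF genes.

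The 13 ZNF genes bound by both proteins were ZNF501, ZNF721, ZNF165, ZNF572, ZNF696, ZNF22, ZNF518A, ZNF408, ZNF384, ZNF213, ZNF263, ZNF276 and ZNF830. All 13 PHF20L1 peaks overlapped the PHF20 peak of the same gene and 10 lay wholly inside it. Their median width was 304 bp (range 212 to 1081 bp), against 323 bp for all PHF20L1 promoter peaks. The PHF20 peaks at these genes had a median width of 950 bp (range 569 to 1440 bp), against 639.5 bp for the 94 ZNF genes with PHF20 only. Over all genes the corresponding medians were 991 bp and 616.5 bp, so the ZNF genes followed the pattern of all genes.

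Of the 13, ZNF518A had the widest PHF20L1 peak. It was 1081 bp wide, at percentile 99.72 of that list, and covered most of a PHF20 peak of 1176 bp. ZNF721 followed with a PHF20L1 peak of 715 bp, of which 713 bp lay in a PHF20 peak of 950 bp. The remaining 11 PHF20L1 peaks were 357 bp wide or less. ZNF501 had 1 of 296 bp in a PHF20 peak of 1440 bp, and ZNF830 had 1 of 255 bp in a PHF20 peak of 1373 bp. At ZNF384 and ZNF408 the centres of the 2 peaks were 9 bp and 17 bp apart, and at ZNF696, the farthest, 338 bp.

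ZNF263, a factor that binds purine-rich repeats, had a PHF20L1 peak of 304 bp in a PHF20 peak of 787 bp. At its neighbour in the same chromosome 16 cluster, ZNF213, a PHF20L1 peak of 219 bp lay in a PHF20 peak of 752 bp. ZNF276 had the narrowest PHF20 peak of the 13, with 569 bp. ZNF165, known as a cancer-testis antigen, had a PHF20L1 peak of 240 bp in a PHF20 peak of 1038 bp. ZNF22 had 323 bp in 1015 bp, and ZNF572 had the narrowest PHF20L1 peak, of 212 bp, in 765 bp.

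Short lists of ZNF genes by known function were read against the 42.1% of all ZNF genes outside chromosome 19 and the 21.5% of all genes. Of 6 promoter factors 5 were bound by PHF20, with peaks of 583 bp and 515 bp at ZNF143, an activator of promoters of coding and small nuclear RNA genes, 777 bp at its paralog ZNF76, 1123 bp at ZNF148, 607 bp at ZNF384 and 1292 bp at ZNF410, the activator of the chromatin remodeller gene CHD4. ZNF281 was not bound. Of 10 genes that act with RNA, ribosomes or the spindle 5 were bound. These were ZNF598, the ubiquitin ligase of collided ribosomes, with 681 bp, ZNF622, which acts in assembly of the large ribosomal subunit, with 1043 bp, ZNF830, a splicing factor, with 1373 bp, ZNF326 with 518 bp and ZNF638 with 234 bp. ZNF207, ZNF346, ZNF593, ZNF330 and ZNF277 were not bound.

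Of 10 chromatin cofactors 2 were bound, ZNF335, a component of a histone H3 lysine methyltransferase complex, with 933 bp, and ZNF217, with the narrow distal peak described above. The 3 partners of the ZMYND8 complex, ZNF592, ZNF687 and ZNF532, were not bound, nor were ZNF516, ZNF644, ZNF827, ZNF462 and ZNF451. Of 11 genes known for expression in few tissues 0 were bound by either protein, a count that would still allow for 27.3%, above the share of all genes. Among these, ZNF521, ZNF423, ZNF385B and ZNF804A had CpG-rich promoters, with ratios of 0.943, 0.864, 0.836 and 0.831, and ZNF683, a T-cell factor, had a ratio of 0.172. The lists are short, they were chosen with earlier results known, the share bound was not tested between them, and whether these genes are transcribed in U2OS was not tested.

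PHF20 peaks inside ZNF genes but outside their promoter windows were few. Of 7 such genes, ZNF514, ZNF197 and ZNF789 also had a promoter peak, and their inner peak lay at the promoter of MRPS5, ZNF35 and ZNF394. ZNF487 had a promoter peak and, 18592 bp downstream of its TSS, an intronic peak of 1495 bp that overlapped no annotated promoter. At ZNF705A and ZNF512B, which had no promoter peak, the inner peaks of 371 bp and 215 bp lay at the promoters of FAM66C and UCKL1. ZNF423, a developmental regulator, had a peak of 221 bp in an intron with its centre 1103 bp downstream of the canonical TSS, outside the window, and it overlapped no other annotated promoter.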

How the data were processed

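Per the labels, HA ChIP-Seq was done in U2OS cells in 8 libraries. The authors mapped reads with Bowtie 1.1.2 to hg38, kept uniquely mapped reads without duplicates, called peaks with MACS2 2.2.7.1 against input, filtered blacklisted regions and built from the replicates 1 final list for each protein, leaving out a failed PHF20 replicate. The deposited values are start and end positions of these peaks, used as they stand. Depth cannot be read from them.

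Coordinates are on hg38 and counted from 1. GENCODE release 44 was used, later than that of the authors. Peaks were placed by overlap of at least 1 bp with the window of any TSS. CpG ratios and words were read from hg38, words on both strands. Zinc finger (C, 2 to 4 residues, C, 12 residues, H, 3 to 5 residues, H) and KRAB-like patterns were searched in translated canonical coding sequences. Promoter copies were found with minimap2 2.31-r1302 (at least 80% covered, at least 95% identical). Python 3.11.15, pysam 0.24.0, pandas 2.3.3 and samtools 1.23.1 were used. Planted peaks, words and clusters served to test the steps on simulated data.

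Genes were named if they had a PHF20L1 peak, were among the 10 widest or 3 narrowest PHF20 peaks, belonged to a function list, to the cluster with most bound genes, or had peaks only inside the gene. Other genes named as class members, on chromosome 7 or for a word were chosen after their values were seen. The members and lists were chosen with earlier results of these data known, and the word ACTACAAT, the classes of TSSs, fingers and CpG, the copy search and the chromosome 7 search were chosen after the files were seen. No test was run, and counts are set beside those of all genes. The alternatives were other windows, TSS sets, peak widths, overlaps and thresholds.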

Additional observations from a re-analysis of the deposited data

How the results depend on the processing

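Of 42 alternatives, 35 moved a count or median by less than the limit set for it (1.5 times for counts). With peaks of at least 300 bp, 7 ZNF genes were bound by PHF20L1 and 7 by both proteins. With peaks no narrower than the median width in the list, 60 were bound by PHF20, 5 by PHF20L1 and 5 by both. The PHF20 share of the ZNF genes was 1.88 to 2.04 times that of all genes under the 8 other windows, TSS sets and widths, and under the last of these PHF20L1 shares were 1.97% and 2.21%. With a CpG ratio of at least 0.75, 52 CpG-rich bound genes were left, and within 100 bp of peak centres 9 peaks held ACTTCCGG. Each drop follows from a narrower rule. Clusters joined within 100 kb or 500 kb gave shares of 56.7% and 51.8%. Leaving out, after the data were seen, the 13 genes whose promoter has a copy left 106 of 241 bound (44%). No paired analysis was possible because each list was built across replicates and gives no value for any of them, and for the same reason no replicate could be left out. Library depth is not in the lists, so an uncalled promoter is not shown to be unbound.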
